A study of Mus musculus with 6 samples.

Results

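Genes of retinoid uptake, synthesis and breakdown were examined in visceral fat of mice lacking nuclear myosin 1 (NM1 KO) and of wild-type mice (WT). They were Rbp4, Stra6, Stra6l, Rdh10, Dhrs3, Aldh1a1, Aldh1a2, Aldh1a3 and Cyp26b1, 9 of the 46603 gene identifiers in the count tables and of 15828 genes tested. Cyp26b1 and Stra6l were selected on their counts, which differed strongly and in opposite directions between these same libraries, so their differences are given as a description with no test. The other 7 were taken for their place in the pathway. RNA was sequenced from abdominal adipose tissue of untreated C57/Bl6 mice aged 18 months, with 3 NM1 KO and 3 WT libraries. Nuclear myosin 1 is an isoform of the motor protein encoded by Myo1c that acts in the nucleus. The labels do not say how the locus was altered, nor whether each library came from its own animal. The p-values therefore reflect the spread among 6 libraries, part of which may be technical.

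Vitamin A reaches fat as retinol bound to the carrier protein RBP4 or as retinyl ester in lipoproteins. Inside the cell, retinol is oxidised to retinal and retinal to retinoic acid, which binds the nuclear receptors RAR and RXR and is then inactivated by enzymes of the CYP26 family. Adipose tissue is known both as a store of retinyl esters and as a source of RBP4, and retinoic acid is known to restrain the formation of fat cells.

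At the end of the pathway, Cyp26b1, which inactivates retinoic acid, stood at 2.00 ± 0.582 CPM in NM1 KO and 14.7 ± 6.36 CPM in WT (CPM is the count scaled to a library of 1000000 counts after TMM normalisation; SD, n = 3 each). At its start, the retinol receptor gene Stra6l stood at 3.72 ± 1.91 CPM in NM1 KO and 0.138 ± 0.174 CPM in WT. Of the abundant genes between them, Aldh1a2 was lower in every NM1 KO library than in any WT library without passing the test, while Aldh1a1, Aldh1a3 and Dhrs3 had NM1 KO means 5.38%, 0.846% and 8.37% above the WT means. A gene is described as called when its Benjamini-Hochberg adjusted p, from edgeR over all genes tested, was under 0.05. Calls made up 4.25% of all tested genes, with 2.79% higher in NM1 KO and 1.47% lower. Among the 9 genes, 2 passed, Cyp26b1 and Stra6l, and nothing is read from that count because the same contrast chose them. The other 7 gave 0 calls by edgeR, 2 at an unadjusted p under 0.05 (Stra6 and Aldh1a2, both lower), 1 by DESeq2 (Aldh1a2) and 0 by limma-voom. The shares over all tested genes were 23.7% before adjustment, 14.1% for DESeq2 and 10.1% for limma-voom.

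CPM ranges did not overlap between the groups for Cyp26b1 and Stra6l, which were selected on these values, nor for 2 of the other 7 genes, Stra6 and Aldh1a2. Over all tested genes 29.9% had ranges that did not overlap, so 2 of 7 is near the background. Of these 2, Stra6 passed the filter on low counts through WT, the group where it was higher. The 250 bases before the first RefSeq start of each are shown (GRCm38.p6, 5′ to 3′ on the gene's strand) because these 4 genes have the largest log2 fold changes, in size, among the 9. Capitals mark the TATA box (the letters TATAAA), the CCAAT box (its name gives the letters) and the GC box (the letters GGGCGG), on either strand. The GC box was present in 32.7% and the CCAAT box in 33.8% of all mouse windows.
Cyp26b1 (chr6:84593811-84594060, minus strand): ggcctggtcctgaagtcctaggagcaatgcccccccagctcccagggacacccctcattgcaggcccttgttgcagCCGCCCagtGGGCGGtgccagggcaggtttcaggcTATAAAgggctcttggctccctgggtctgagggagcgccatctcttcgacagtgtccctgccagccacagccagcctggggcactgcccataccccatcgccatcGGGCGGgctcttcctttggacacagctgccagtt
Stra6 (chr9:58128838-58129087, plus strand): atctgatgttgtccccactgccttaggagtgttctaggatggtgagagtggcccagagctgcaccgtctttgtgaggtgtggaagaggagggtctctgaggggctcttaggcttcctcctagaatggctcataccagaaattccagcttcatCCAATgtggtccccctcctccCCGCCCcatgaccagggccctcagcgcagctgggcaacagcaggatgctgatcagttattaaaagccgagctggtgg
Stra6l (chr4:45848566-45848815, plus strand): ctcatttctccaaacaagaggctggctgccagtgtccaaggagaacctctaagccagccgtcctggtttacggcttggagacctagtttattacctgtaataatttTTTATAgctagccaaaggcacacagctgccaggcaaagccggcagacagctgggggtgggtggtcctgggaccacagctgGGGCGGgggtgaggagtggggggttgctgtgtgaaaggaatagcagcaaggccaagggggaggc
Aldh1a2 (chr9:71215539-71215788, plus strand): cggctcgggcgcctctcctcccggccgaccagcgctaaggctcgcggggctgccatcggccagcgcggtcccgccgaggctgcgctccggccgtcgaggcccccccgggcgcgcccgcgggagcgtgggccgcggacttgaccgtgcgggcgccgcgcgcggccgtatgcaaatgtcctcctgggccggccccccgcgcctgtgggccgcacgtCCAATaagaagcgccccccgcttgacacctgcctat

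RefSeq promoter windows were matched for 7 of the 9 genes, with 15 windows in all, and Aldh1a3 and Rdh10 were not matched. Some windows of Stra6l and of Dhrs3 share bases, so the 15 are not separate and their comparison with all windows is a description. The letters AGGTCA, the core element bound by nuclear receptors such as RAR and RXR, stood in none of the 15 windows on either strand, against 14.0% of 32851 mouse windows of the same length. AGTTCA, a variant of that element, was also in none, against 11.8%. An exact direct repeat of AGGTCA spaced by 5 bases, a form of the retinoic acid response element, was in 0.00913% of all windows and in none of the 15. This says only that these letters are not in these windows. Repeats that include a variant such as AGTTCA were not searched. TATAAA stood 139 to 134 bases before the RefSeq start of Cyp26b1 and, on the other strand, 144 to 139 bases before the first RefSeq start of Stra6l. It also stood 28 to 23 bases before the second RefSeq start of Rbp4, and was present in 12.4% of all windows. The RefSeq starts of Cyp26b1, Stra6 and Stra6l differ from the ends of the genes given below. The windows shown for Cyp26b1 and Stra6l lie partly, and that for Stra6 wholly, within those gene coordinates. The Aldh1a2 window had a GC content of 77.6%, against a median of 52.4% over all windows, and held CCAAT 36 to 32 bases before the start.

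Libraries held between 24677758 and 33537818 counts. Myo1c, which the knockout targets, had 567 ± 123 CPM in NM1 KO and 787 ± 24.4 CPM in WT, with a log2 fold change of -0.47 ± 0.17 (SE) and an edgeR adjusted p of 0.151. The count covers all isoforms of Myo1c and does not check the knockout. Genes of high GC content stood lower in NM1 KO replicates 1 and 3 and higher in the other 4 libraries (Spearman's rho of GC content with the deviation from the mean of all libraries, across 13933 genes, -0.430, 0.239 and -0.457 in NM1 KO replicates 1 to 3 and 0.349, 0.258 and 0.145 in WT replicates 1 to 3). Markers of fat cells were abundant in every library, with 15 markers summing to 39500 to 48800 CPM in NM1 KO and 50000 to 54700 CPM in WT. Of 12 markers of epididymis and testis 10 were at 0 in all 6 libraries, and Insl3, at 0.503 ± 0.0389 CPM in NM1 KO and 2.12 ± 0.827 CPM in WT, was called lower. Of 8 pancreas markers 5 were at 0 throughout, and Cela1, at 58.4 ± 6.61 CPM in NM1 KO and 30.4 ± 10.3 CPM in WT, was called by DESeq2 and limma-voom but not by edgeR. Of 10 liver markers 5 never reached 1 CPM, and Cyp2e1, at 292 ± 114 CPM in NM1 KO and 1260 ± 529 CPM in WT, was called lower. The 5 tested liver markers ran both ways, 2 positive and 3 negative, with log2 fold changes between -2.11 and 1.14. At an unadjusted edgeR p under 0.05, 1 was higher and 1 lower. In bulk tissue fewer cells of a type and less RNA per cell cannot be told apart.

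The carrier Rbp4 (ENSMUSG00000024990, chromosome 19, 38116629 to 38125281 on GRCm38, minus strand) encodes the plasma protein that carries retinol. Rbp4 was measured at 249, 448 and 343 CPM in NM1 KO replicates 1 to 3, and at 407, 498 and 364 CPM in WT replicates 1 to 3. The groups overlapped, with NM1 KO replicate 1 lowest and WT replicate 2 highest. Its log2 fold change was -0.29 ± 0.23 (edgeR adjusted p = 0.488). Per kilobase of merged exons it was the most abundant of the 9 genes in both groups, at 258 ± 74.3 CPM per kb in NM1 KO and 315 ± 50.7 CPM per kb in WT.

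Stra6 (ENSMUSG00000032327, chromosome 9, 58063788 to 58153996, plus strand) encodes a cell surface receptor that takes up retinol from RBP4. It had 1, 14 and 9 counts in NM1 KO replicates 1 to 3 (0.0322, 0.427 and 0.328 CPM), and 24, 51 and 12 counts in WT replicates 1 to 3 (0.887, 1.63 and 0.481 CPM). All NM1 KO values lay below all WT values, but only 24 counts in NM1 KO and 87 in WT stood behind them. Stra6 passed the filter on low counts through WT, where 3 libraries reached 0.341 CPM, against 1 in NM1 KO. The lack of overlap is therefore given as a description. Its log2 fold change of -1.92 ± 0.79 did not pass the test (edgeR adjusted p = 0.199). Without WT replicate 2 the log2 fold change was -1.37, and without NM1 KO replicate 1 it was -1.38. In the annotation Stra6 overlaps Ccdc33 on the opposite strand, which had at most 3 counts in any library.

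Stra6l (ENSMUSG00000028327, chromosome 4, 45848664 to 45887008, plus strand) is the Stra6-like gene, which encodes a membrane protein that takes up RBP4-bound retinol in liver and intestine of mice. The libraries held 178, 115 and 53 Stra6l counts in NM1 KO replicates 1 to 3 (5.73, 3.51 and 1.93 CPM), and 9, 0 and 2 in WT replicates 1 to 3 (0.333, 0 and 0.0801 CPM). Every NM1 KO library was above every WT library, and within NM1 KO the values spread from 1.93 to 5.73 CPM. The log2 fold change was 4.75 ± 0.93, and the ratio of the group mean CPM was 27.0, which rests on 11 WT counts in all. Stra6l passed the filter on low counts through the NM1 KO libraries alone, since no WT library reached 0.341 CPM. After removal of the trends of each library with GC content and length it was 4.52. Leaving out 1 library gave log2 fold changes between 4.13 (without WT replicate 2) and 6.52 (without WT replicate 1).

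**Figure D1:**
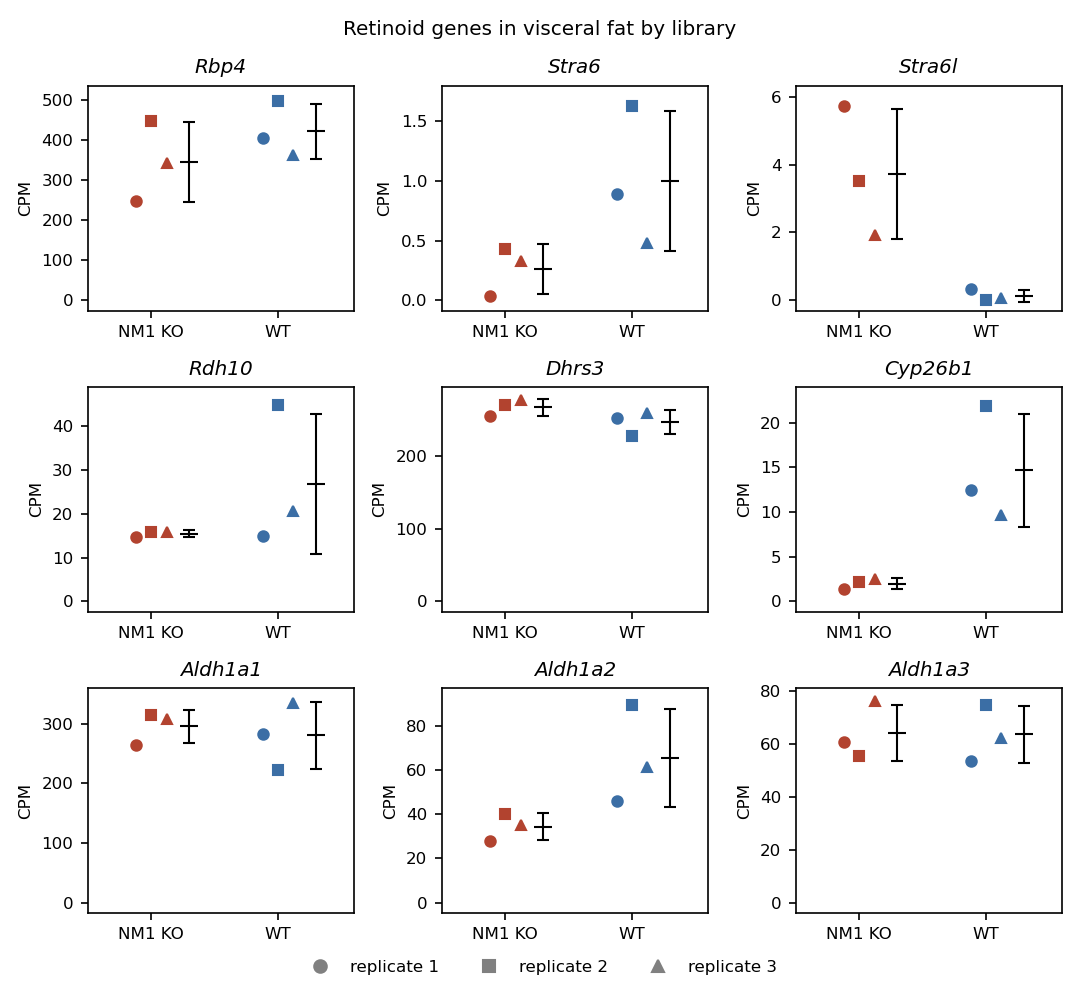
CPM of the 9 genes in each library, 3 NM1 KO on the left and 3 WT on the right of each panel, with a symbol for each replicate number and bars for the mean ± SD; each axis is linear with its own scale. Cyp26b1, Stra6 and Aldh1a2 lie lower and Stra6l higher in NM1 KO without overlap, while WT replicate 2 stands highest for Cyp26b1, Stra6, Aldh1a2, Rdh10 and Rbp4.

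Rdh10 (ENSMUSG00000025921, chromosome 1, 16105774 to 16133734, plus strand) encodes a retinol dehydrogenase that makes retinal. Its level was 14.6, 15.9 and 15.9 CPM in NM1 KO replicates 1 to 3, and 14.9, 44.9 and 20.7 CPM in WT replicates 1 to 3. The groups overlapped, and WT replicate 2 alone stood far above the rest. Rdh10 had the smallest relative spread in NM1 KO after Dhrs3 (coefficient of variation 4.91%) and a large one in WT (59.3%). On the log2 scale the fold change was -0.79 ± 0.38 (edgeR adjusted p = 0.257), and -0.20 without WT replicate 2.

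Dhrs3 (ENSMUSG00000066026, chromosome 4, 144892827 to 144928209, plus strand) encodes a reductase that turns retinal back into retinol and is known as a target of retinoic acid. It was measured at 254, 269 and 276 CPM in NM1 KO replicates 1 to 3, and at 252, 227 and 258 CPM in WT replicates 1 to 3. The ranges overlapped and the spread was small, with a coefficient of variation of 4.19% in NM1 KO and 6.76% in WT. That gave a log2 fold change of 0.12 ± 0.10 (edgeR adjusted p = 0.533).

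The Aldh1a enzymes oxidise retinal to retinoic acid. Aldh1a1 (ENSMUSG00000053279, chromosome 19, 20492715 to 20643465, plus strand) had 264, 315 and 309 CPM in NM1 KO replicates 1 to 3, and 283, 223 and 336 CPM in WT replicates 1 to 3. The NM1 KO values lay inside the WT range, with a log2 fold change of 0.076 ± 0.17 (edgeR adjusted p = 0.818) whose sign turned under other settings. Its relative Aldh1a7, described with the other pathway genes, is a near copy on the same chromosome, so the split of reads between them is uncertain. The pseudogene Gm6684, on the opposite strand within Aldh1a1, had 5, 7 and 6 counts in NM1 KO replicates 1 to 3, and 42, 7 and 40 counts in WT replicates 1 to 3.

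Aldh1a2 (ENSMUSG00000013584, chromosome 9, 71215789 to 71296243, plus strand) encodes the enzyme known for retinoic acid synthesis in the embryo and in mesothelium. It had 27.8, 39.9 and 35.2 CPM in NM1 KO replicates 1 to 3, and 45.7, 89.2 and 61.2 CPM in WT replicates 1 to 3. All NM1 KO libraries lay below all WT libraries, NM1 KO replicate 2 being closest to WT replicate 1. The log2 fold change was -0.93 ± 0.26 and did not pass the test (edgeR adjusted p = 0.0883). It was -0.64 without WT replicate 2, and the adjusted p ranged from 0.00890 with DESeq2 to 0.222 without NM1 KO replicate 1 over 15 alternatives, 3 of which called it.

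Aldh1a3 (ENSMUSG00000015134, chromosome 7, 66390890 to 66427517, minus strand) was measured at 60.7, 55.5 and 75.9 CPM in NM1 KO replicates 1 to 3, and at 53.5, 74.7 and 62.2 CPM in WT replicates 1 to 3. The ranges overlapped almost wholly and the log2 fold change was 0.012 ± 0.17 (edgeR adjusted p = 0.976). As a share of the summed CPM per kb of Aldh1a1, Aldh1a2 and Aldh1a3, Aldh1a2 made up 15.6%, 18.9% and 16.4% in NM1 KO replicates 1 to 3, and 22.6%, 39.1% and 24.9% in WT replicates 1 to 3. The shares of the groups did not overlap. Aldh1a1 made up 67.4% ± 1.09 of the sum in NM1 KO and 57.3% ± 10.8 in WT (SD, n = 3 each), where WT replicate 2 had 44.9%.

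Cyp26b1 (ENSMUSG00000063415, chromosome 6, 84571414 to 84593908, minus strand) encodes a cytochrome P450 that hydroxylates retinoic acid and so ends its signal. It had 42, 71 and 68 counts in NM1 KO replicates 1 to 3 (1.35, 2.17 and 2.48 CPM), and 337, 683 and 242 counts in WT replicates 1 to 3 (12.5, 21.8 and 9.70 CPM). The highest NM1 KO library was far below the lowest WT library. The log2 fold change was -2.88 ± 0.38 and the mean CPM of WT was 7.34 times that of NM1 KO. After removal of the GC and length trends it was -2.71, and -2.47 without WT replicate 2. Its relatives were near 0, Cyp26a1 at 0.105 ± 0.0977 CPM in NM1 KO and 0.323 ± 0.334 CPM in WT, and Cyp26c1 at 0.0983 ± 0.0546 CPM in NM1 KO and 0.0673 ± 0.0642 CPM in WT. Both were too low to test. The GC content of Cyp26b1 was 56.7% and that of Stra6l 46.6%, against a median of 55.6% over genes called lower and 47.6% over genes called higher.

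**Figure D2:**
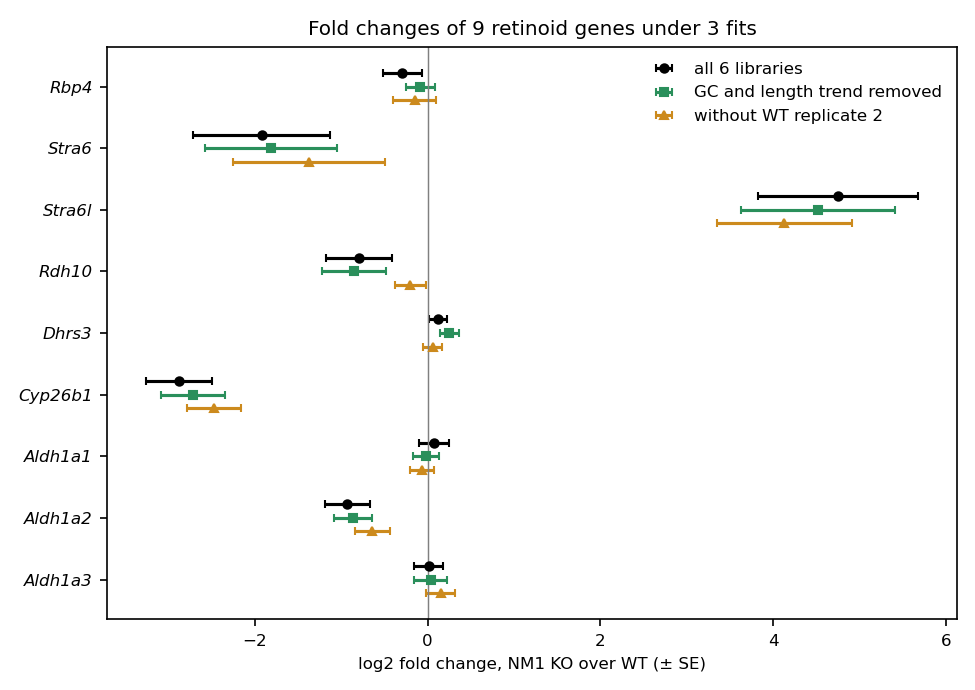
Log2 fold change of NM1 KO over WT (± SE) for the 9 genes, with all 6 libraries, after removal of the GC and length trends, and without WT replicate 2. Stra6l, at 4.75, and Cyp26b1, at -2.88, lie apart from 0 in all 3 fits, while Rdh10 moves to -0.20 without WT replicate 2.

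Ordered by CPM per kb of merged exons, WT fat held Rbp4 first, then Dhrs3 (84.0 ± 5.68), Aldh1a1 (56.9 ± 11.5), Aldh1a2 (28.9 ± 9.74), Aldh1a3 (13.7 ± 2.30), Rdh10 (6.45 ± 3.82), Cyp26b1 (2.74 ± 1.19), Stra6 (0.0825 to 0.280) and Stra6l (0.0144 ± 0.0182). Of these neighbours only Rdh10 and Cyp26b1 overlapped in their ranges. In NM1 KO the first 6 genes kept that order, but Aldh1a2, at 15.2 ± 2.69 CPM per kb, overlapped with Aldh1a3, at 13.9 ± 2.30. Stra6l (0.389 ± 0.199) and Cyp26b1 (0.373 ± 0.109) overlapped as well and stood above Stra6 (0.0450 ± 0.0353).

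WT replicate 2 held the highest value for 5 of the 9 genes, Rbp4, Stra6, Rdh10, Aldh1a2 and Cyp26b1, and the lowest for 3, Stra6l, Dhrs3 and Aldh1a1. Over all tested genes it held the highest value for 20.5% and the lowest for 18.5%. NM1 KO replicate 1 held the lowest value for 5, Rbp4, Stra6, Rdh10, Aldh1a2 and Cyp26b1, the last of which was selected on its counts. That library held the lowest value for 25.8% of all tested genes. Cyp26b1 and Stra6l were selected on their counts, and Stra6 passed the filter on low counts through WT. Nothing is therefore read from the numbers of highest and lowest values in either library. The keratins Krt8, Krt18 and Krt19 of the mesothelial marker list, named here after their values were seen, were also highest in WT replicate 2. Krt8 had 34.9, 30.3 and 34.3 CPM in NM1 KO replicates 1 to 3, and 24.8, 150 and 46.7 CPM in WT replicates 1 to 3. Like Rdh10, Krt8 had its 5 other libraries well below WT replicate 2. Over the 14 mesothelial markers, 7 were highest in WT replicate 2 and 7 in WT replicate 3. The part of mesothelial cells in the levels of Rdh10, Aldh1a2 and Cyp26b1 was not tested.

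**Figure D3:**
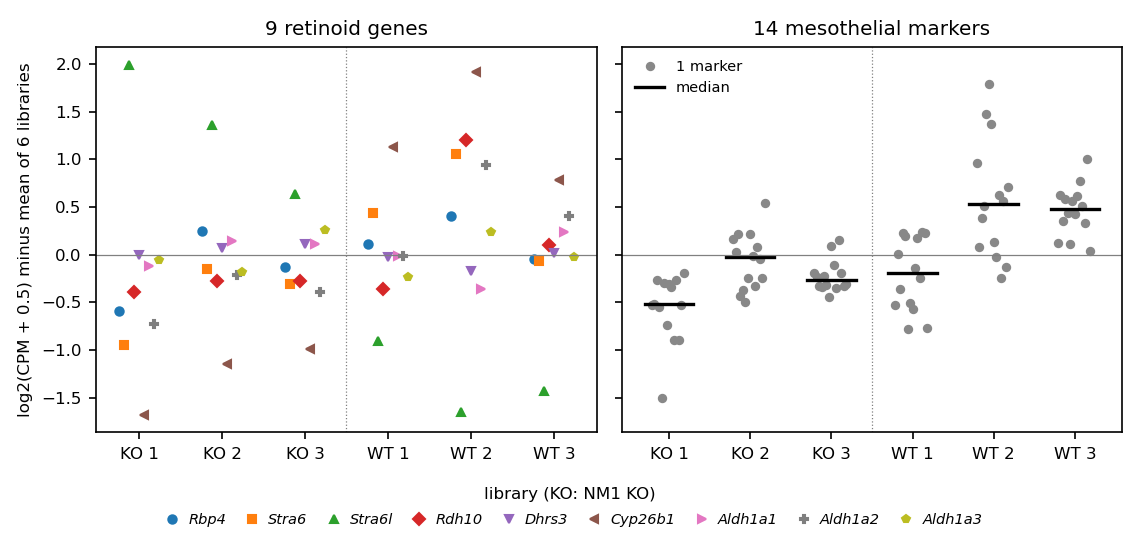
Log2(CPM + 0.5) in each library minus the mean of the 6 libraries, for the 9 retinoid genes on the left and for 14 mesothelial markers on the right, where a point is a marker and the line their median. WT replicate 2 is highest for Cyp26b1, Rdh10, Stra6, Rbp4 and Aldh1a2 and for 7 of the 14 mesothelial markers, whose median is 0.53 there and 0.48 in WT replicate 3.

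Markers of some other cell types differed with genotype beside these genes. For comparison, edgeR called 1.47% of all tested genes lower and 2.79% higher. Vascular endothelial markers summed to 600, 882 and 850 CPM in NM1 KO replicates 1 to 3, and to 1940, 1680 and 1490 CPM in WT replicates 1 to 3, with 12 of 17 called lower and none at 0. Mesothelial markers summed to 1110 ± 215 CPM in NM1 KO and 1590 ± 405 CPM in WT, with 2 of 14 called lower. Their sums overlapped between groups. All 14 log2 fold changes were negative, with a median of -0.60, against 50.3% negative over all tested genes. Macrophage markers summed to 7070 to 9770 CPM in NM1 KO and 3100 to 4180 CPM in WT, with 8 of 16 called higher and none at 0. Stromal progenitor markers summed to 6450 ± 490 CPM in NM1 KO and 6080 ± 835 CPM in WT, and these sums overlapped between groups. Of the 15, 4 were called higher (Pdgfra, Dpt, Lum and Prrx1). The list ran both ways, with 5 positive and 10 negative log2 fold changes and a median of -0.066. Smooth muscle and pericyte markers summed to 1130 ± 155 CPM in NM1 KO and 1520 ± 90.4 CPM in WT, with 1 of 10 called lower (Myh11). The part of these shifts in the levels of Cyp26b1, Aldh1a2 and Stra6l was not tested.

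Further genes of the pathway came in 6 lists with 77 members besides the 9 genes. Of these, 55 were tested, 2 were called higher (Dhrs9 and Ncoa2) and 2 lower (Scarb1 and Rai2), against 4.25% of all tested genes. The median log2 fold change of the 55 was -0.078, and that of all tested genes -0.002. DESeq2 called 5 higher and 7 lower, and limma-voom 5 higher and 4 lower, against 14.1% and 10.1% of all tested genes.

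Among 8 tested binding and carrier proteins the lower call was Scarb1, a lipoprotein receptor that also takes up carotenoids. Scarb1 had 58.0, 80.5 and 67.0 CPM in NM1 KO replicates 1 to 3, and 154, 141 and 124 CPM in WT replicates 1 to 3. The groups were well apart, with a log2 fold change of -1.03 ± 0.15 (edgeR adjusted p = 0.0231). Rbp7, a cellular retinol-binding protein found in fat and its vessels, averaged 8.40 ± 1.75 CPM in NM1 KO and 22.1 ± 9.34 CPM in WT and was not called (edgeR adjusted p = 0.0609). Fabp5, which can carry retinoic acid to the nuclear receptor PPARD, averaged 181 ± 61.9 CPM in NM1 KO and 91.3 ± 26.8 CPM in WT (edgeR adjusted p = 0.112). Rbp7 and Fabp5 were named because they had the next smallest p of this list after Scarb1. Crabp1 was at 0 throughout, and Crabp2 did not exceed 0.0401 CPM.

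All 5 tested genes of retinyl ester storage and release had negative log2 fold changes, between -0.73 and -0.31 with a median of -0.66. With edgeR 0 passed after adjustment and 4 fell under 0.05 before it, while 3 passed with DESeq2 and 1 with limma-voom, all lower. Over all tested genes 50.3% had negative log2 fold changes, 10.8% were lower with an unadjusted p under 0.05, and 5.93% were called lower by DESeq2 and 4.21% by limma-voom. Pnpla2, the lipase ATGL, averaged 1520 ± 286 CPM in NM1 KO and 2410 ± 310 CPM in WT (edgeR adjusted p = 0.0924). Ces1d, a carboxylesterase of fat, averaged 569 ± 106 CPM in NM1 KO and 898 ± 111 CPM in WT (edgeR adjusted p = 0.0821). Lrat, which makes retinyl esters in liver, was too low to test, at 0.0446 ± 0.0391 CPM in NM1 KO and 0.288 ± 0.170 CPM in WT. The summed level of 15 fat cell markers was lower in NM1 KO, at 43500 ± 4810 CPM against 52500 ± 2410 CPM in WT, and its part was not tested. These markers include Lipe and Pnpla2 of the retinyl ester list, and edgeR called 0 of the 15.

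Of 12 tested genes that interconvert retinol and retinal, 1 was called, against 4.25% of all tested genes. Dhrs9, a short-chain dehydrogenase that oxidises retinol, had 11.8, 8.30 and 6.63 CPM in NM1 KO replicates 1 to 3, and 1.77, 2.97 and 3.61 CPM in WT replicates 1 to 3. All NM1 KO values were higher, with a log2 fold change of 1.68 ± 0.34 (edgeR adjusted p = 0.0416). Adh1, an alcohol dehydrogenase named for its role and not by the rule, averaged 112 ± 10.9 CPM in NM1 KO and 120 ± 18.1 CPM in WT (edgeR adjusted p = 0.734). Among 6 other genes of retinal oxidation and retinoic acid breakdown 0 passed with edgeR after adjustment and 2 fell under 0.05 before it (both higher), while 2 passed with DESeq2 and 2 with limma-voom. All tested genes had shares of 23.7% before adjustment, 14.1% with DESeq2 and 10.1% with limma-voom. Aldh1a7 averaged 116 ± 19.7 CPM in NM1 KO and 76.2 ± 13.8 CPM in WT (edgeR adjusted p = 0.0934).

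Nuclear receptors and their partners gave 1 call in 16 genes, against 4.25% of all tested genes. Ncoa2, a coactivator of nuclear receptors, had 71.3, 63.3 and 72.9 CPM in NM1 KO replicates 1 to 3, and 45.7, 37.8 and 39.9 CPM in WT replicates 1 to 3. Its log2 fold change was 0.75 ± 0.12 (edgeR adjusted p = 0.0258), and 0.44 after removal of the GC and length trends, where it was not called (adjusted p = 0.0520, within 1.05e-05 to 0.111 over 15 alternatives). Rarg, the gamma receptor for retinoic acid, averaged 55.7 ± 14.5 CPM in NM1 KO and 96.3 ± 1.48 CPM in WT and was not called (edgeR adjusted p = 0.0625). It was named because it had the next smallest p of this list after Ncoa2. Of the other receptors, named for their role, Rara (38.3 ± 4.42 CPM in NM1 KO, 41.4 ± 6.20 CPM in WT), Rarb, Rxra and Rxrg overlapped between groups. Rxrb did not overlap, at 50.7 ± 0.837 CPM in NM1 KO and 59.7 ± 3.93 CPM in WT, and was not called (edgeR adjusted p = 0.197).

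Among 13 tested genes known as targets of retinoic acid, Cyp26b1, Stra6 and Dhrs3 have been described and Rai2 was the other call. Rai2, named for its induction by retinoic acid, had 21.7, 26.3 and 25.4 CPM in NM1 KO replicates 1 to 3, and 43.6, 44.5 and 39.9 CPM in WT replicates 1 to 3. The groups were well apart, with a log2 fold change of -0.80 ± 0.12 (edgeR adjusted p = 0.0237). Rarb, the receptor gene most used as a readout of retinoic acid, averaged 7.81 ± 1.21 CPM in NM1 KO and 6.95 ± 0.730 CPM in WT, with a log2 fold change of 0.17 ± 0.19 (edgeR adjusted p = 0.645). The 13 log2 fold changes ran from -2.88 to 0.52, with 5 positive and 8 negative. Their median of -0.19 includes Cyp26b1, which was selected on its counts, so nothing is read from it. Scarb1, Dhrs9, Ncoa2 and Rai2 were not called when NM1 KO replicate 3 or any WT library was left out, fits in which 1 to 37 genes were called in all, and only Scarb1 was called without NM1 KO replicate 1.

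**Figure D4:**
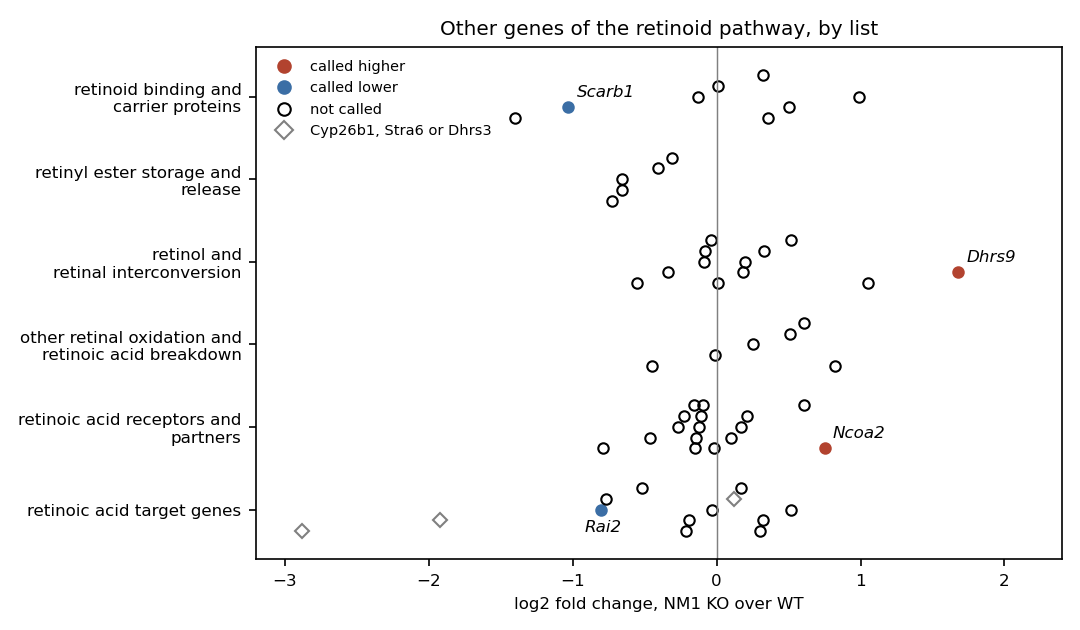
Log2 fold change of NM1 KO over WT for the tested genes of 6 retinoid lists, where a point is a gene, filled points are called genes and diamonds are Cyp26b1, Stra6 and Dhrs3, shown for place. The 5 genes of retinyl ester storage lie between -0.73 and -0.31, and the other lists spread to both sides of 0.

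The chromosomal surroundings of Cyp26b1 and Stra6l were read from the same fit. Within 1 Mb of Cyp26b1 14 other genes were tested and 0 were called by edgeR, with 3 at an unadjusted p under 0.05, 2 called by DESeq2 and 1 by limma-voom. Their median log2 fold change was -0.017. Within 5 Mb 3 of 105 were called, all higher (2.86%, against 4.25% of all tested genes). Around Stra6l 1 of 28 genes with any part within 1 Mb was called, Gabbr2, named after its value was seen, which encodes a subunit of the GABA-B receptor. Gabbr2, whose start lies 1.143 Mb from that of Stra6l, had 1.77, 1.83 and 1.17 CPM in NM1 KO replicates 1 to 3, and 0.148, 0.192 and 0.0401 CPM in WT replicates 1 to 3. All NM1 KO libraries were higher (log2 fold change 3.57 ± 0.54, edgeR adjusted p = 0.0248). Within 5 Mb 6 of 118 were called (5.08%), and 5 of them were lower, Tpm2, Gba2, Gm5859, Gm10600 and Gm13301, named after their values were seen. The last 3 start at positions -3.632 to -3.608 Mb relative to the start of Stra6l (upstream), and 2 of them are annotated as pseudogenes. Gm13301 was at 0 in all NM1 KO libraries, against 2.66, 2.11 and 1.96 CPM in WT replicates 1 to 3. Gm10600 had 0.0965, 0.0305 and 0.146 CPM in NM1 KO replicates 1 to 3, and 1.92, 1.15 and 1.64 CPM in WT replicates 1 to 3. Gm5859 had 0.193, 0.0610 and 0.0364 CPM in NM1 KO replicates 1 to 3, and 0.998, 0.991 and 0.842 CPM in WT replicates 1 to 3. All 3 were lower in every NM1 KO library. They passed the filter on low counts through WT alone, since no NM1 KO library reached 0.341 CPM for them. Gabbr2 passed it through NM1 KO alone, so the ranges and calls of these genes are given as a description. Aldh1b1, whose start is 0.050 Mb upstream of Stra6l, and Ccdc180, 0.042 Mb downstream, had log2 fold changes of 0.51 ± 0.24 and 0.75 ± 0.45 and were not called.

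**Figure D5:**
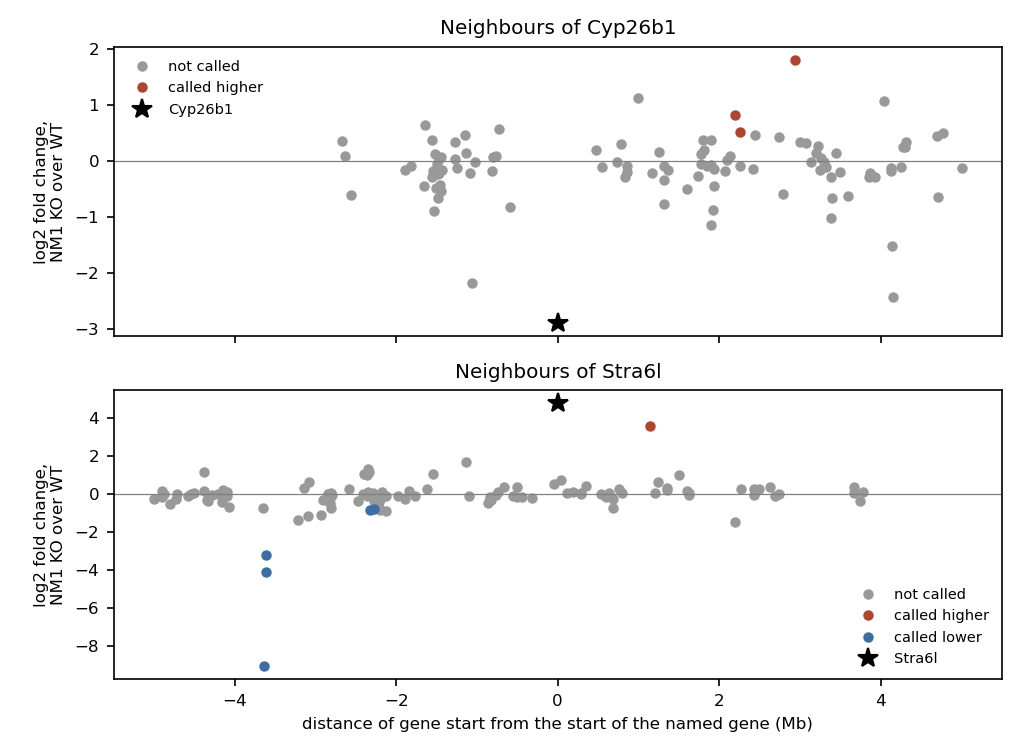
Log2 fold change of NM1 KO over WT for genes tested within 5 Mb of Cyp26b1 (upper panel) and Stra6l (lower panel), by distance of the gene starts in Mb; the star is the named gene. Cyp26b1, at -2.88, has no called gene within 1 Mb, and near Stra6l, at 4.75, Gabbr2 is the gene called higher.

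The genes with the most similar pattern over the 6 libraries, by Pearson's r of log2(CPM + 0.5) among protein-coding genes averaging 1 CPM or more, were L1cam, Hdgfl2, Srrt and Hgh1 for Cyp26b1, and Pik3ap1, Nckap1l, Kif3b and Ralgapa2 for Stra6l. L1cam, an adhesion molecule, had 3.70, 4.64 and 4.63 CPM in NM1 KO replicates 1 to 3, and 8.69, 10.5 and 7.21 CPM in WT replicates 1 to 3. Pik3ap1, a signalling adaptor of immune cells, had 76.9, 52.5 and 43.0 CPM in NM1 KO replicates 1 to 3, and 21.7, 16.5 and 17.6 CPM in WT replicates 1 to 3. With 6 libraries in 2 groups a gene that differs between the groups resembles any other that does, so the likeness is a description.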

How the data were processed

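Tools listed in the submitters' processing notes are HISAT2 2.0.4, HTSeq, Trimmomatic 0.36, SAMtools 0.1.19 and FastQC, and the build is GRCm38 (mm10). Neither the annotation nor the strand setting used for counting is stated in them, so overlapping genes and near copies are uncertain. The authors deposited whole-number counts per Ensembl gene, without normalization. Of 46603 identifiers, 46091 were matched to GENCODE M21, and the rest held 0.033% of counts. No 2 libraries of a group agreed within sampling noise.

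Groups follow the labelled genotype. The test was edgeR 4.0.16 under R 4.3.3 (filterByExpr, TMM, robust quasi-likelihood fit, genotype only, two-sided, Benjamini-Hochberg adjustment over all 15828 genes). SE is the log2 fold change over the square root of F. CPM uses TMM-scaled totals, and CPM per kb the merged exon length. Intervals are SD over 3 libraries, and counts limit precision for Stra6 and Stra6l. Promoters come from RefSeq (GRCm38.p6). Alternatives were RLE factors, library totals, 2 other filters, DESeq2 1.42.0, limma-voom (limma 3.58.1) with quality weights, a GC and length offset (natural splines, 5 degrees of freedom), the replicate block and leaving out each library. The genes and lists were chosen with earlier results of these data known. Named genes were the 9 genes, Myo1c, called list genes or the 3 smallest p per list at a mean of at least 1 CPM, and the 4 most alike genes; not all are printed. Figures used matplotlib 3.10.9.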

Additional observations from a re-analysis of the deposited data

How the results depend on the processing

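Counts of calls depended on the tool and on single libraries. Over all genes 673 were called, against 2239 with DESeq2, 1605 with limma-voom with quality weights and 336 with the replicate block, and between 1 (without WT replicate 3) and 1654 (without NM1 KO replicate 2) when 1 library was left out. Of the 9 retinoid genes 2 were called, and between 0 and 2 when 1 library was left out: 0 without NM1 KO replicate 3 or any WT replicate, and 1 without NM1 KO replicate 1. Of the other pathway genes 4 were called, against 12 with DESeq2, 9 with limma-voom and 2 with the replicate block, and between 0 and 8 when 1 library was left out. The labels do not say whether the replicate numbers pair the samples. The deviations of same-numbered libraries from their group means had correlations of -0.060, -0.035 and 0.188. Those of differently numbered libraries lay between -0.097 and 0.112. With 3 libraries in each group these values cannot decide the pairing. With the replicate block Stra6l was not called (log2 fold change 4.99), while Aldh1a2 was (-0.89, edgeR adjusted p = 0.0483), so the 2 called were Cyp26b1 and Aldh1a2; Dhrs9 (0.106) and Rai2 (0.0511) were not called. With that block and the GC and length offset Aldh1a2 was called (0.0418) and Dhrs9 (0.0762) and Ncoa2 (0.0758) were not. The single values in brackets for Dhrs9, Rai2, Ncoa2 and the second for Aldh1a2 are edgeR adjusted p over all genes. Over the 15 alternatives the adjusted p of Aldh1a2 ran between 0.00890 and 0.222, of Dhrs9 between 0.000102 and 0.113, of Rai2 between 3.51e-07 and 0.0906 and of Ncoa2 between 1.05e-05 and 0.111. The log2 fold change of Stra6l lay over 15 alternatives between 4.13 and 6.52 and that of Cyp26b1 between -3.11 and -2.47. Values near 0 changed sign: Aldh1a1 (0.076) was -0.015 with the GC and length offset, -0.0029 with that offset and the replicate block, and between -0.065 (without WT replicate 2) and 0.22 when 1 library was left out; Aldh1a3 (0.012) was -0.013 with library totals alone and lay between -0.13 and 0.15 when 1 library was left out. The alternative with at least 1 CPM in 3 libraries left Stra6 untested. The causes were not tested. Depth limits Stra6, with 24 counts in NM1 KO and 87 in WT, and Stra6l, with 11 counts in WT.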
